A study of Mus musculus with 6 samples.

Results

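The ATF4 branch of the integrated stress response was examined through 10 genes in brown adipose tissue, the depot that burns fuel to make heat: Atf4, Atf5, Ddit3, Trib3, Chac1, Asns, Sesn2, Slc7a11, Slc3a2 and Ddit4. The rows were chosen by gene symbol, as ATF4, factors related to it and its direct stress targets outside one-carbon metabolism, and all 10 were found among the 24062 symbols of the count table. Of the 10, 9 passed the filter on low counts, which 13300 symbols passed, and Slc7a11 did not. The tissue came from male C57BL/6 mice aged 12 weeks, 3 labelled FAM195A knockout and 3 labelled FAM195A heterozygous. By label, both groups carried at least 1 disrupted copy of FAM195A, a gene described in the series as encoding a stress granule protein. No wild-type group was analysed here. The sources used here do not give the kind of allele, whether littermates were used or the housing temperature. The comparison addresses which of these transcripts differ when both copies rather than 1 are disrupted. Libraries are called knockout 1 to 3 (titles RF2, RF4 and RE9) and heterozygous 1 to 3 (titles RF1, RF3 and RE6), and what the prefixes RF and RE mean is not stated.

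In the integrated stress response, kinases that sense amino acid shortage, misfolded protein, heme shortage, mitochondrial trouble or viral RNA phosphorylate the alpha subunit of the initiation factor eIF2. General translation then slows, while the mRNAs of ATF4 and ATF5 are translated better because short upstream reading frames no longer divert ribosomes. ATF4 is a bZIP transcription factor that pairs with C/EBP proteins on composite DNA elements and switches on genes of amino acid supply, of glutathione breakdown and of feedback control. Because ATF4 and ATF5 are controlled at translation, an mRNA level is only a partial view of their activity. In brown fat the response is known to be engaged when mitochondria are impaired.

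The composite site is shown first, since it is the DNA feature through which this factor reaches its targets. The 250 bases before the RefSeq start sites (GRCm38.p6) were searched on both strands for TGATGNAA, the core of the C/EBP-ATF response element. Asns, Chac1 and Slc7a11 held it, against 3.45% of all 32851 promoter windows of that length, and the other 7 genes did not. In the lines below, each read 5′ to 3′ on the strand of its gene, capitals mark the match. The Asns window is chr6:7693210-7693459, minus strand, the Chac1 window chr2:119350992-119351241, plus strand, and the Slc7a11 window chr3:50443614-50443863, minus strand. The windows of Trib3 (chr2:152344061-152344310, minus strand) and Atf4 (chr15:80254934-80255183, plus strand), both without a match, are printed because their transcripts separated the groups.
Asns: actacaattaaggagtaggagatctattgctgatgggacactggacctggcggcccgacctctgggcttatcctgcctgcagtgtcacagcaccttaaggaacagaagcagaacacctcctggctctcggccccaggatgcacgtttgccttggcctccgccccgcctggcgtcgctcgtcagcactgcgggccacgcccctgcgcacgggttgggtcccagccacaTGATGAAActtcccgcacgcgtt
Chac1: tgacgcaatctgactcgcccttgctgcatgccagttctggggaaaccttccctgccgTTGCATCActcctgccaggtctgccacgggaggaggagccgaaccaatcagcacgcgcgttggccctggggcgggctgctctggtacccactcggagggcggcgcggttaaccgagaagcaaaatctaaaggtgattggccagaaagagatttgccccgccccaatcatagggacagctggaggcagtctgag
Slc7a11: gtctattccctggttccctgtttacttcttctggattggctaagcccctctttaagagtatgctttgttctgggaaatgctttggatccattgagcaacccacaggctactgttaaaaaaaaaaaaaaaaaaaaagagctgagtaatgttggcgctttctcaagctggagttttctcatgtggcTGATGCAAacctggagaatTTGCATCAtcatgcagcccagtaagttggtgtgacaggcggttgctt
Trib3: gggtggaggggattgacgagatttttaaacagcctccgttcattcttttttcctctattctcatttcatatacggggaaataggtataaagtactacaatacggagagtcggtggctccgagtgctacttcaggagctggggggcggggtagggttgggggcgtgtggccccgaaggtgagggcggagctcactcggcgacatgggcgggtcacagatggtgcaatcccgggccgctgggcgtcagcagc
Atf4: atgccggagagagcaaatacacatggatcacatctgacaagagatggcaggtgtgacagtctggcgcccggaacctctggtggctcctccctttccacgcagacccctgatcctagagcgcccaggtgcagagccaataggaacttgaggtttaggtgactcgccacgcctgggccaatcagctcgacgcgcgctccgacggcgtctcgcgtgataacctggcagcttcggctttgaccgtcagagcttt
In Asns the match is TGATGAAA on the gene's strand, from position -23 to -16, counted from the start site. In Chac1 it is TTGCATCA, the TGATGCAA form read on the other strand, from position -193 to -186. Slc7a11 carries 2 copies of the TGATGCAA form in opposite orientation, at positions -66 to -59 and -47 to -40. That form occurs in 0.791% of all windows, and its matches are a subset of those of the core. The element for endoplasmic reticulum stress, CCAAT and CCACG with 9 bases between them, was in no window of the 10 genes and in 0.113% of all windows. The cyclic AMP response element TGACGTCA was in none of them either, against 1.55% of all windows. The antioxidant response element core TGACNNNGC was in the windows of Asns and Sesn2 and in 10.2% of all windows. A match is a run of letters and not an occupied site. Bases outside these windows were not searched, so a window without a match does not show that its gene lacks a site. For Slc3a2 the window (chr19:8713898-8714147) lay inside the gene span given below.

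Some facts of the libraries touch every value below. Gene reads numbered 22418031, 25084627 and 23373773 in knockout 1, 2 and 3, and 18781401, 19825537 and 20471963 in heterozygous 1, 2 and 3. The targeted gene Fam195a (Mcrip2 in newer annotation; GRCm38 chr17:25863698-25868764, minus strand) stood at 50.5, 82.0 and 81.3 CPM (counts scaled to a common library size with TMM factors) in knockout 1, 2 and 3. It stood at 68.9, 70.5 and 102.7 CPM in heterozygous 1, 2 and 3, so that the groups overlapped (log2 fold change -0.18, SE 0.241, edgeR adjusted p = 0.896). The transcript therefore does not check the labels, and the groups are called knockout-labelled and heterozygous-labelled. Here and throughout, an edgeR adjusted p comes from its quasi-likelihood test, with the Benjamini-Hochberg method applied over all tested genes. The 12 brown adipocyte markers were all present, 1 rose (Elovl3), and they had summed levels of 21062 to 26110 CPM in knockout-labelled and 20983 to 21970 CPM in heterozygous-labelled libraries. Fabp4 alone made up 9137 to 12349 CPM of these sums. The RE-titled library was the lowest of each group for Ucp1, Dio2, Ppargc1a, Prdm16, Pparg, Adrb3 and Plin1. It was the highest of each group for Cidea, Cox7a1 and Adipoq. Ucp1 stood at 4388, 5690 and 1646 CPM in knockout 1, 2 and 3. Its levels in heterozygous 1, 2 and 3 were 4895, 5288 and 2962 CPM. All 20 skeletal muscle markers were present and had log2 fold changes below 0, with a median of -2.20. Their summed level was 6774, 3945 and 3846 CPM in knockout 1, 2 and 3, and 10847, 24623 and 32105 CPM in heterozygous 1, 2 and 3. Of the markers of macrophages (8 tested), endothelium (6), fibroblasts (6), lymphocytes (2), red blood cells (1) and nerve (4) edgeR, DESeq2 and limma-voom called none, and none had an unadjusted edgeR p under 0.05. All 8 macrophage estimates were above 0 (median 0.24), as were 53.1% of all tested genes. Their summed levels were 156 to 269 CPM in knockout-labelled and 105 to 257 CPM in heterozygous-labelled libraries. Of the 20 muscle markers none passed by edgeR or limma-voom, all 20 were called lower by DESeq2, and all 20 had an unadjusted edgeR p under 0.05. A fit with a muscle score as covariate was added after seeing the data. Its score did not overlap between the groups, so that it separates muscle from genotype poorly. The part of muscle tissue in the differences below was thus not settled. In whole tissue fewer cells of a type and less RNA per cell cannot be told apart.

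With genotype as the only term, none of the 9 tested genes passed the threshold, which was adjusted over all tested genes. Atf4 and Trib3 were higher in all 3 knockout-labelled libraries than in any heterozygous-labelled one, with fold changes of 1.48 and 1.86. Atf5, Ddit4, Slc3a2 and Ddit3 differed between RE-titled and RF-titled libraries, Atf5 and Ddit4 by over 1.3 on the log2 scale. By edgeR none of the 9 tested genes passed an adjusted p of 0.05 for genotype. Of all 13300 tested genes 0.586% passed, 0.0526% as higher and 0.534% as lower. DESeq2 called 0 of the 9 (5.26% of the 14363 genes it gave an adjusted p, 0.815% as higher). Limma-voom with quality weights also called 0 of the 9 (1.46% of all tested genes, and 0.218% as higher). At an unadjusted p under 0.05 there were 2 of the 9, both higher; 12.1% of all tested genes reached that level, 4.05% as higher and 8.04% as lower. In 2 of the 9 the groups did not overlap, as in 18% of all tested genes in either direction, so that this count is near the background. Of the 9, 8 had log2 fold changes above 0, as had 53.1% of all tested genes. Their median was 0.41, against 0.02 over all tested genes, and their range ran from -0.43 for Chac1 to 1.04 for Atf5. Among the 4 RF libraries alone their median was 0.29, and between the 2 RE libraries, where no test is possible, it was 0.55.

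**Figure D1:**
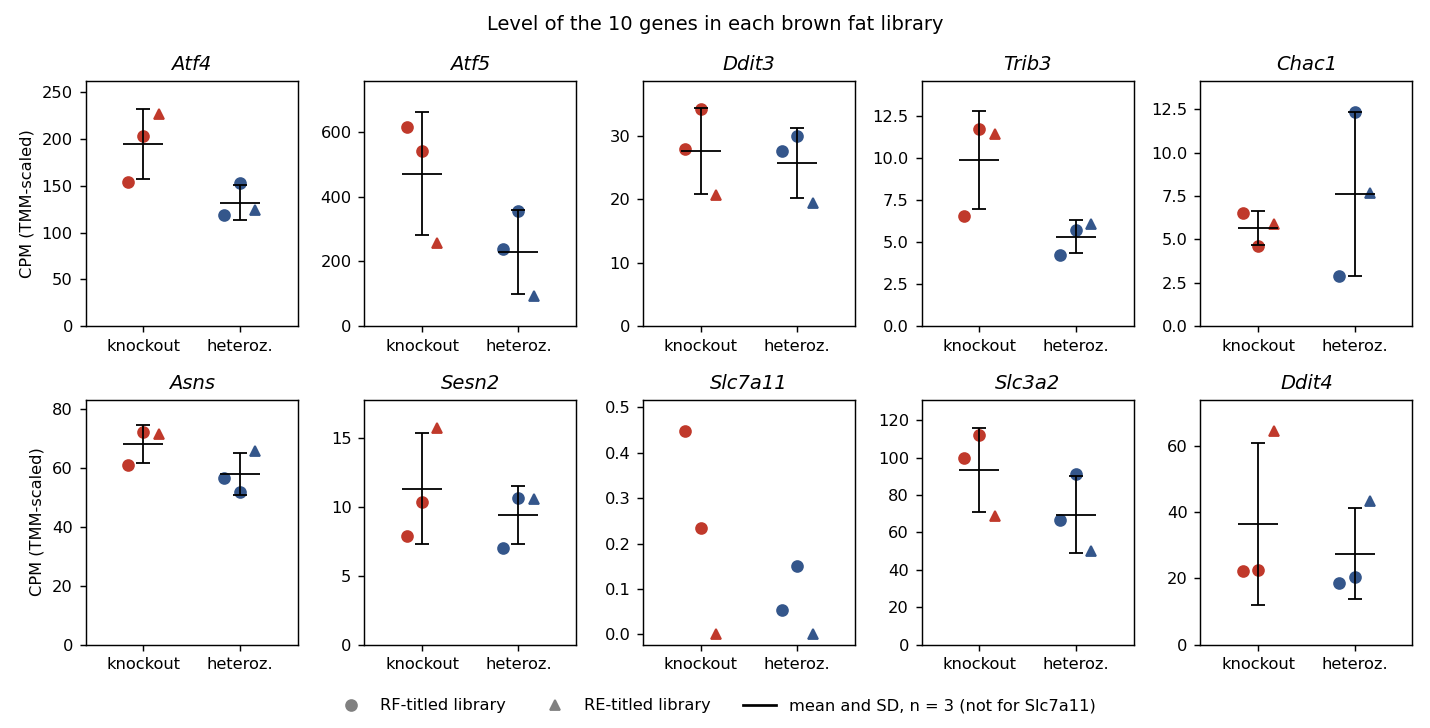
CPM on TMM-scaled library sizes (vertical axes, each gene on its own scale) of the 10 genes in each library, knockout-labelled in red on the left and heterozygous-labelled in blue on the right, with circles for RF titles, triangles for RE titles, and bars for mean and SD (n = 3, not drawn for Slc7a11). The red and blue points of Atf4 and of Trib3 do not overlap, and the triangles of Atf5 are the lowest and those of Ddit4 the highest point of their group.

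Of the transcription factors, Atf4, the effector of the response, lies on GRCm38 chr15:80255184-80257541, plus strand. It stood at 153.6, 204 and 227 CPM in knockout 1, 2 and 3, and at 118, 153.3 and 125 CPM in heterozygous 1, 2 and 3. The groups did not overlap, but knockout 1 and heterozygous 2 were nearly equal; 8.09% of all tested genes had every knockout-labelled library above every heterozygous-labelled one. The means were 195 ± 37.5 and 132 ± 18.7 CPM in knockout-labelled and heterozygous-labelled libraries (SD, n = 3 each; log2 fold change 0.56, SE 0.184, edgeR adjusted p = 0.242). The 95% interval ran from 0.13 to 0.99 on the log2 scale, or 1.09-fold to 1.99-fold, and is not adjusted for the number of genes. Among the RF libraries alone the log2 difference was 0.39, and between the RE libraries it was 0.86.

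Atf5, a close relative of ATF4 known for switching on mitochondrial stress genes in mammals, lies on chr7:44812256-44816658, minus strand. It stood at 616, 541 and 256 CPM in knockout 1, 2 and 3, and at 238, 354 and 93.6 CPM in heterozygous 1, 2 and 3. The RE-titled library was the lowest of each group, and knockout 3 lay below heterozygous 2, so that the groups overlapped. The difference was the widest of the 9 genes, 2.06-fold (log2 1.04, SE 0.506, edgeR adjusted p = 0.502), with a 95% interval of 0.903-fold to 4.70-fold. With the title prefix in the model the estimate was 1.13 with an SE of 0.187, and Atf5 passed (edgeR adjusted p = 0.0282), as did 2.34% of all tested genes, 0.504% as higher. No other of the 9 genes passed in that fit. Among the RF libraries alone the log2 difference was 0.96, and between the RE libraries it was 1.45. Leaving out single libraries moved it between 0.67 (without heterozygous 3) and 1.51 (without heterozygous 2), and it passed in none of these fits. Exons of Atf5 share 82 bases, 4.1% of its exon length, with Nup62 and Il4i1 on the other strand, and the sources used here do not say whether strand was used in counting.

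Ddit3, which encodes CHOP, the C/EBP-related factor of prolonged stress, lies on chr10:127290774-127296288, plus strand. Its levels were 27.9, 34.3 and 20.8 CPM in knockout 1, 2 and 3, and 27.6, 30.1 and 19.5 CPM in heterozygous 1, 2 and 3. The groups overlapped almost entirely, and again the RE-titled libraries were the lowest. The log2 fold change was 0.11 (SE 0.235, edgeR adjusted p = 0.946), with a 95% interval of 0.735-fold to 1.58-fold, which leaves room for a modest difference in either direction. The sign turned without knockout 2 (-0.077) and without heterozygous 3 (-0.059). Ddit3 shares 68 exon bases, 4.0% of its length, with Mars on the other strand. It shares 105 exon bases, 6.1%, with another protein-coding entry of the annotation, also named Ddit3, on the same strand.

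Trib3, a pseudokinase that CHOP and ATF4 switch on and that restrains ATF4 in turn, lies on chr2:152337422-152344032, minus strand. It was low: 6.54, 11.7 and 11.4 CPM in knockout 1, 2 and 3, and 4.21, 5.69 and 6.04 CPM in heterozygous 1, 2 and 3, from 79 to 301 reads per library. All 3 knockout-labelled libraries lay above the others, although knockout 1 exceeded heterozygous 3 by little. The means were 9.9 ± 2.92 and 5.32 ± 0.972 CPM in knockout-labelled and heterozygous-labelled libraries (SD, n = 3 each). The log2 fold change was 0.90 (SE 0.278, edgeR adjusted p = 0.213), with a 95% interval of 1.19-fold to 2.92-fold. This p was the smallest of the 9 genes, and DESeq2 gave an adjusted p of 0.0676. It measured 0.88 among the RF libraries and 0.87 between the RE libraries. Leaving out single libraries moved it between 0.76 (without knockout 2) and 1.12 (without knockout 1).

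**Figure D2:**
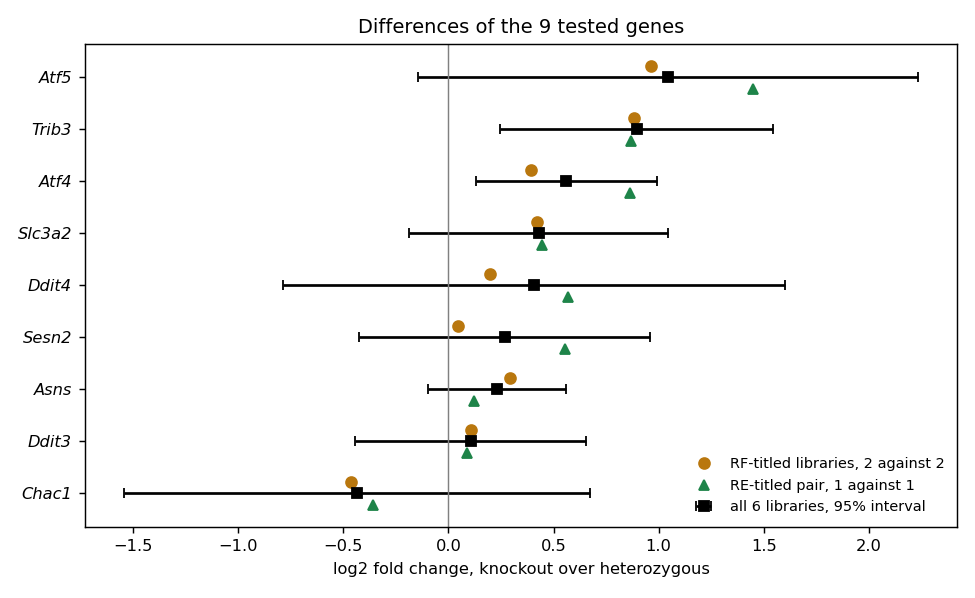
Log2 fold change, knockout over heterozygous (horizontal axis), of the 9 tested genes, with the 95% interval of the fit on all 6 libraries (black squares), the fit on the RF-titled libraries (orange circles) and the ratio in the RE-titled pair (green triangles). The intervals of Trib3 and Atf4 lie above 0, those of the other 7 genes span it, and Chac1 alone has its estimate below 0.

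Of the amino acid supply genes, Asns, asparagine synthetase and a standard ATF4 target (chr6:7675169-7693254, minus strand), stood at 60.8, 72.0 and 71.4 CPM in knockout 1, 2 and 3, and at 56.6, 51.6 and 65.6 CPM in heterozygous 1, 2 and 3. The groups overlapped through heterozygous 3, which was above knockout 1. The log2 fold change was 0.23 (SE 0.141, edgeR adjusted p = 0.647). Its interval, 0.935-fold to 1.48-fold, was the narrowest of the 9 genes. The spread of Asns within groups, an SD of 0.16 on the log2 scale, was at the 24.8th percentile of all tested genes, so that Asns was also the steadiest of the 9.

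Slc3a2, the CD98 heavy chain that carries several amino acid exchangers to the cell surface (chr19:8706882-8723369, minus strand), stood at 99.6, 112.1 and 68.7 CPM in knockout 1, 2 and 3. It stood at 66.8, 91.1 and 50.3 CPM in heterozygous 1, 2 and 3. The RE-titled library was the lowest of each group, and knockout 3 lay below heterozygous 2. The log2 fold change was 0.43 (SE 0.262, edgeR adjusted p = 0.653), with 0.42 among the RF and 0.45 between the RE libraries. Slc7a11, the light chain that joins CD98 to import cystine for glutathione (chr3:49892526-50443614, minus strand), had 10, 6 and 0 reads in knockout 1, 2 and 3, and 1, 3 and 0 reads in heterozygous 1, 2 and 3. Both RE-titled libraries were at 0, where 3 reads would be 0.138 CPM, a floor that covers counting error only. Slc7a11 did not pass the filter; without the filter its log2 fold change was 1.70 (SE 1.21, edgeR adjusted p = 0.771), and DESeq2 gave no adjusted p. The 2 matches to the element before its start thus stood beside a transcript of at most 10 reads per library.

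Chac1, which breaks down glutathione and marks ATF4 activity in many cells (chr2:119351229-119354381, plus strand), was the 1 gene with a log2 fold change below 0. It stood at 6.49, 4.6 and 5.90 CPM in knockout 1, 2 and 3, and at 2.88, 12.3 and 7.70 CPM in heterozygous 1, 2 and 3. The knockout-labelled libraries lay close together inside the range of the heterozygous-labelled ones, which spanned from 54 to 245 reads. The log2 fold change was -0.43 (SE 0.471, edgeR adjusted p = 0.86), with a 95% interval of 0.343-fold to 1.6-fold. It turned to 0.10 without heterozygous 2.

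Sesn2 and Ddit4 both restrain mTORC1, the growth kinase, and answer to p53 as well as to ATF4. Sesn2, sestrin 2, which senses leucine (chr4:132492032-132510501, minus strand), stood at 7.88, 10.3 and 15.7 CPM in knockout 1, 2 and 3, and at 6.98, 10.6 and 10.6 CPM in heterozygous 1, 2 and 3. Only knockout 3 exceeded the other group, and without it the log2 fold change of 0.27 (SE 0.295, edgeR adjusted p = 0.864) turned to -0.053. Ddit4, or REDD1, which glucocorticoids and low oxygen also raise (chr10:59949669-59951834, minus strand), stood at 22.1, 22.6 and 64.6 CPM in knockout 1, 2 and 3. It stood at 18.6, 20.3 and 43.4 CPM in heterozygous 1, 2 and 3. Within each title group the knockout-labelled libraries were above the heterozygous-labelled ones, by 0.20 on the log2 scale for RF and 0.57 for RE, but the RE-titled libraries were far above the RF-titled ones. The log2 fold change over all 6 was 0.41 (SE 0.508, edgeR adjusted p = 0.89) and turned to -0.31 without knockout 3.

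Per kilobase of exon the levels fell into 3 steps, in which neighbours changed places between libraries. Atf5 averaged 175 ± 98.8 and Atf4 69.3 ± 18.4 CPM per kilobase (SD over the 6 libraries), and Atf5 was above Atf4 in 5 of 6 libraries. Slc3a2 at 23.1 ± 6.6, Asns at 23.0 ± 2.99, Ddit4 at 18.2 ± 10.5 and Ddit3 at 15.6 ± 3.29 CPM per kilobase followed, and each changed places with its neighbour in some libraries. Chac1 at 4.06 ± 1.98, Trib3 at 3.58 ± 1.5 and Sesn2 at 2.98 ± 0.877 CPM per kilobase came last among the 9, and there neighbours kept their order in 3 of 6 libraries. The gap from Ddit3 down to Chac1 held in 6 of 6 libraries, as did that from Atf4 down to Slc3a2.

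The spread within groups was uneven. On the log2 scale the SD within groups was 0.85 for Atf5, 0.77 for Ddit4 and 0.71 for Chac1, at the 97.9th, 96.9th and 95.6th percentiles of all tested genes. For Atf4 it was 0.25, at the 53.3rd percentile, where the median over all tested genes was 0.24. Much of the spread of Atf5 and Ddit4 ran along the title prefix, in opposite directions. In a fit with genotype and prefix, read for these genes after their values were seen, RE over RF gave a log2 difference of -1.41 for Atf5 (SE 0.210, edgeR adjusted p = 0.0131) and 1.35 for Ddit4 (SE 0.125, edgeR adjusted p = 0.00511). Slc3a2 (-0.64, SE 0.147, edgeR adjusted p = 0.0398) and Ddit3 (-0.58, SE 0.135, edgeR adjusted p = 0.0411) were lower in the RE-titled libraries too. These 4 of the 9 genes passed, where 9.35% of all tested genes passed, 5.02% as higher in RE and 4.32% as lower. Atf4 (0.12, adjusted p = 0.713 by edgeR), Trib3 (0.30), Asns (0.19), Sesn2 (0.53) and Chac1 (0.053) did not pass. With just 2 RE libraries, the number passing dropped to 0 when knockout 3 was left out, to 1 for heterozygous 3 or knockout 1, and to 2 for knockout 2 or heterozygous 2. The sign of these 4 genes was the same in each of those fits.

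**Figure D3:**
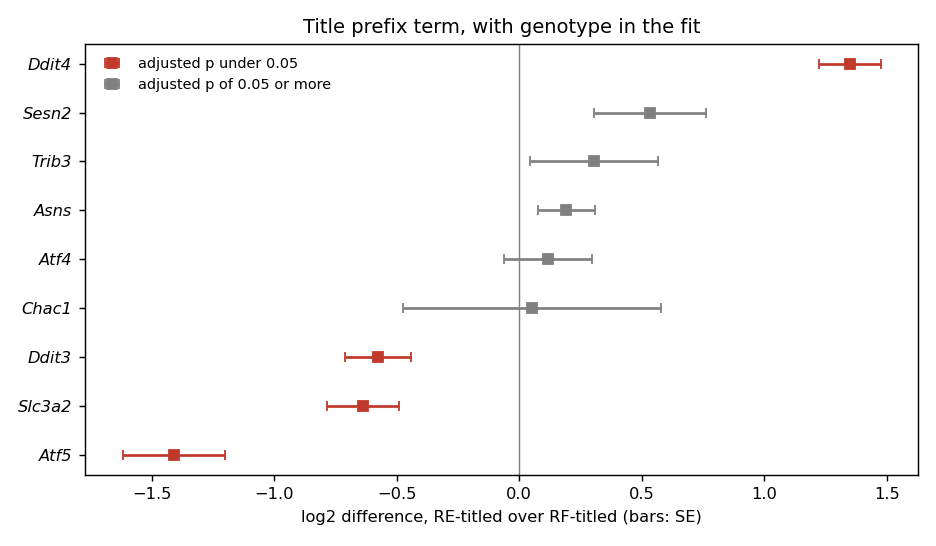
Log2 difference between RE-titled and RF-titled libraries (horizontal axis, bars show the SE) of the 9 tested genes in a fit that also holds genotype, with genes of adjusted p under 0.05 in red. Ddit4 stands at 1.35, Atf5 at -1.41, and Slc3a2 and Ddit3 near -0.6, while the other 5 genes stay grey.

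Upstream of ATF4, the kinases of eIF2 alpha showed no called change. By edgeR none of the 6 genes of this list passed, with 1 higher and 2 lower at an unadjusted p under 0.05. For this list and those below, 4.05% of all tested genes were higher and 8.04% lower at that level. Eif2ak1, the heme-regulated kinase that also relays mitochondrial stress, stood at similar levels in both groups (83.7, 76.3 and 81.1 CPM in knockout 1, 2 and 3, against 79.3, 82.6 and 79.0 CPM in heterozygous 1, 2 and 3; 95% interval of the log2 fold change -0.25 to 0.26). The interferon-induced kinase Eif2ak2 was at 0.15, the endoplasmic reticulum kinase Eif2ak3 at 0.29 and the amino acid sensor Eif2ak4 at 0.34 on the log2 scale (edgeR adjusted p = 0.861, 0.459 and 0.376). Both partners that carry mitochondrial stress to Eif2ak1 had estimates below 0. Dele1, listed under its older symbol 0610009O20Rik, stood at 33.9, 31.9 and 35.0 CPM in knockout 1, 2 and 3 and at 50.5, 50.5 and 68.9 CPM in heterozygous 1, 2 and 3. Its groups did not overlap (log2 -0.75, SE 0.158, edgeR adjusted p = 0.0789); it passed by DESeq2 (adjusted p = 0.00378) and with the title prefix in the model (edgeR adjusted p = 0.0215), not by limma-voom. Oma1, the protease that cleaves DELE1, was at -0.52 (edgeR adjusted p = 0.218), also without overlap. Eif2ak3 and Eif2ak4 were without overlap in the other direction, with all knockout-labelled libraries higher. Of all tested genes 8.09% lay apart as higher and 9.89% as lower.

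At the level of eIF2 itself, none of 10 subunit and phosphatase genes passed by edgeR, DESeq2 or limma-voom, and none had an unadjusted edgeR p under 0.05. The list median was 0.21, with Eif2b3 of the exchange factor at 0.28 and Eif2s1, the alpha subunit, at 0.24. Ppp1r15a, or GADD34, the stress-induced phosphatase subunit that ends the response, stood at 22.6, 29.4 and 32.6 CPM in knockout 1, 2 and 3, and at 16.7, 22.7 and 24.1 CPM in heterozygous 1, 2 and 3 (log2 0.41, SE 0.201, edgeR adjusted p = 0.501). Its constitutive counterpart Ppp1r15b was at 0.09 (edgeR adjusted p = 0.958).

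Other targets of ATF4 pointed in both directions. Among 9 serine and one-carbon genes edgeR called none, with 1 higher and 1 lower at an unadjusted p under 0.05, and DESeq2 called both of these. With the title prefix in the model edgeR called 1, Shmt2 (adjusted p = 0.0476). Mthfd2, the mitochondrial folate enzyme, had a log2 fold change of 1.58 (SE 0.491, edgeR adjusted p = 0.22) and Shmt2, the serine hydroxymethyltransferase beside it, -0.61 (edgeR adjusted p = 0.083). Among 10 amino acid transport and metabolism genes the aminotransferases Got1 (-1.06, edgeR adjusted p = 0.133) and Gpt2 (-1.26, adjusted p = 0.575) had the smallest p; edgeR and limma-voom called none of the list, 1 had an unadjusted p under 0.05, and DESeq2 called Got1. The Gpt2 value rested on 1 library: it stood at 13.2 to 33.4 CPM in knockout-labelled libraries and at 22.3, 28.8 and 122.4 CPM in heterozygous 1, 2 and 3, and without heterozygous 3 the log2 fold change was -0.081. Among CD98 light chains and relatives of Asns and Chac1, Chac2, the constitutive glutathione-degrading enzyme, was at -0.51 and the exchanger Slc7a6 at 0.39 (edgeR adjusted p = 0.216 and 0.557). In that list, too, edgeR, DESeq2 and limma-voom called none of 10, with 1 at an unadjusted p under 0.05.

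All 12 cytosolic aminoacyl-tRNA synthetase genes, which load amino acids onto tRNA and of which many are ATF4 targets, had positive estimates (median 0.26 on the log2 scale). Of all tested genes 53.1% had estimates above 0, and the list was chosen with earlier results of these data known. None of the 12 passed by edgeR. At an unadjusted edgeR p under 0.05 there were 3, all higher, where 4.05% of all tested genes were higher. Yars stood at 42.1, 45.8 and 41.4 CPM in knockout 1, 2 and 3, and at 26.2, 29.4 and 28.2 CPM in heterozygous 1, 2 and 3 (log2 0.63, SE 0.120, edgeR adjusted p = 0.0736). It passed by DESeq2 (adjusted p = 0.00152) and limma-voom (adjusted p = 0.0393), and with the title prefix in the model (edgeR adjusted p = 0.0316). Wars was at 0.45 (edgeR adjusted p = 0.162). Of 12 other ATF4 or CHOP targets edgeR, DESeq2 and limma-voom called none and 1 had an unadjusted p under 0.05; Eif4ebp1, a translation repressor, was at 0.39 (edgeR adjusted p = 0.217) and the lipoprotein receptor Vldlr at -0.37 (adjusted p = 0.433). The bZIP partners (10 tested, median -0.01) held no call by edgeR, DESeq2 or limma-voom and no unadjusted p under 0.05, with the stress factor Nupr1 at 0.27 and Cebpg, a C/EBP partner of ATF4, at 0.19.

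**Figure D4:**
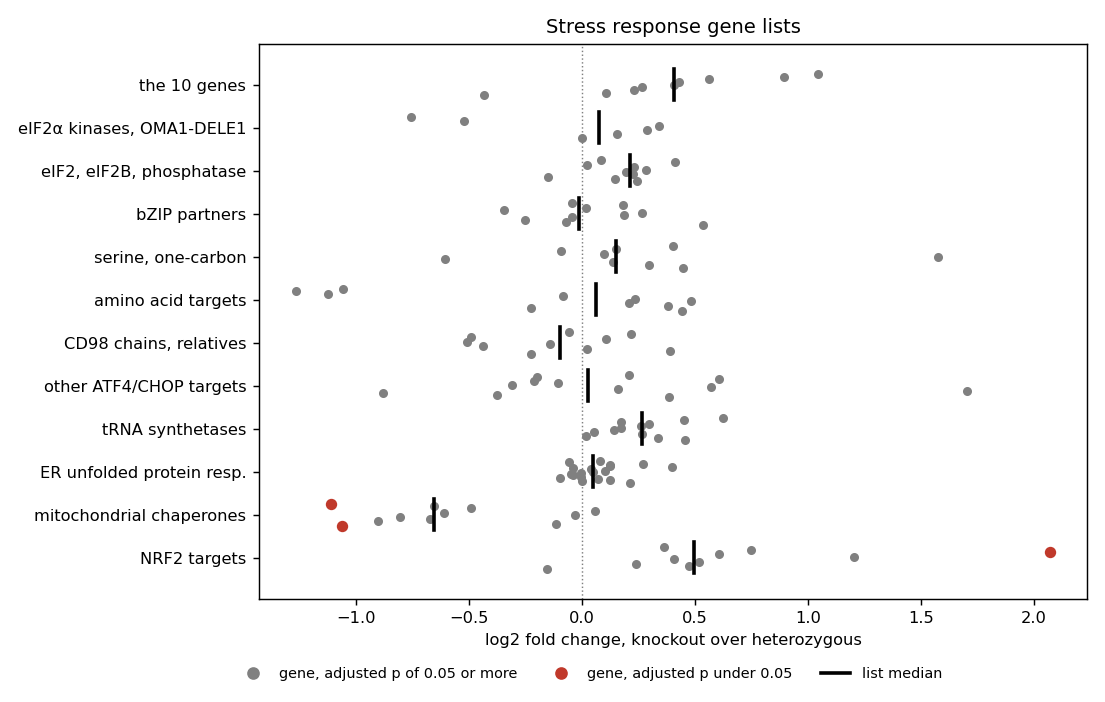
Log2 fold change, knockout over heterozygous (horizontal axis), of each tested gene of the 10-gene set and of 11 further stress lists (rows), with list medians as black bars and genes of adjusted p under 0.05 in red. The calls are 2 lower genes among mitochondrial chaperones and 1 higher gene among NRF2 targets. All 12 tRNA synthetase points lie right of 0, as do 53.1% of all tested genes.

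Neighbouring stress programmes were counted in the same way, and the lists were not tested against each other. The unfolded protein response of the endoplasmic reticulum outside ATF4 held no call: 0 of 19 genes passed by edgeR, DESeq2 or limma-voom, none had an unadjusted p under 0.05, and the median was 0.05, with the transcription factor Xbp1 at 0.21 and the chaperone partner Sdf2l1 at 0.40. Among 11 mitochondrial chaperones and proteases 2 fell and none rose by edgeR, where 0.534% of all tested genes fell, and the median was -0.66. At an unadjusted edgeR p under 0.05 there were 8 lower and none higher, where 8.04% of all tested genes were lower. DESeq2 called 7 lower, limma-voom 5, and edgeR 6 with the title prefix in the model. Over all genes given an adjusted p, these fits called 5.26%, 1.46% and 2.34% in either direction. Trap1, a mitochondrial HSP90, fell to 157, 173 and 191 CPM in knockout 1, 2 and 3, against 384, 394 and 347 CPM in heterozygous 1, 2 and 3 (log2 -1.11, SE 0.136, edgeR adjusted p = 0.0259). Hspd1, the mitochondrial chaperonin, fell by 1.06 on the log2 scale (SE 0.158, edgeR adjusted p = 0.0427). Among 10 NRF2 targets, a programme that shares Slc7a11 with ATF4, Cbr3 rose (log2 2.07, SE 0.292, edgeR adjusted p = 0.0388). Of the 10 estimates 9 were above 0, as were 53.1% of all tested genes. At an unadjusted edgeR p under 0.05 there were 5 NRF2 targets, all higher, where 4.05% of all tested genes were higher. DESeq2 called 3 NRF2 targets higher, limma-voom 2, and edgeR 2 with the title prefix in the model. Over all genes given an adjusted p, these fits called 0.815%, 0.218% and 0.504% as higher. The calls on Trap1, Hspd1 and Cbr3 were each lost without knockout 1, knockout 2, heterozygous 2 or heterozygous 3, where the edgeR adjusted p reached 0.144 for Trap1, 0.203 for Hspd1 and 0.185 for Cbr3. With each library left out in turn the estimates ran between -1.19 and -1.04 for Trap1, -1.12 and -0.96 for Hspd1, and 1.78 and 2.25 for Cbr3.

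Programmes that share control of Sesn2 or Ddit4 with ATF4 held no call by edgeR with genotype as the only term. None of the 8 glucocorticoid targets and none of the 8 hypoxia targets passed by edgeR, DESeq2 or limma-voom or had an unadjusted p under 0.05. The metallothionein Mt1 was at 0.15 and Klf9 at -0.24 in the first list, Pdk1 at -0.45 and Adm at 0.60 in the second. Along the title prefix only levels are given, for both lists and for the p53 targets. In the first list the RE-titled library was the highest of each group for Fkbp5, Tsc22d3, Per1, Sgk1, Zbtb16 and Klf9. It was the lowest of each group for Mt2, and for Mt1 the highest only among knockout-labelled libraries. Fkbp5 stood at 35.7, 23.8 and 285 CPM in knockout 1, 2 and 3. In heterozygous 1, 2 and 3 it stood at 42.8, 19.9 and 186 CPM. The RE-titled library was also the highest of each group for Bnip3 and Egln3 among the hypoxia targets. Among the p53 targets it was the highest for Cdkn1a, Ccng1, Sesn1, Eda2r and Phlda3, and the lowest for Bbc3 and Bax. Cdkn1a stood at 116, 91.2 and 352 CPM in knockout 1, 2 and 3. Its levels in heterozygous 1, 2 and 3 were 104, 106 and 202 CPM. The cause of these patterns was not tested. Of 9 p53 targets none passed by edgeR or limma-voom, with 2 higher and 1 lower at an unadjusted p under 0.05. Eda2r, of the TNF receptor family, was at -1.99 (edgeR adjusted p = 0.079, DESeq2 adjusted p = 0.00105) and Phlda3 at 0.60. With the title prefix in the model Eda2r passed by edgeR too (adjusted p = 0.0282). Among the sestrins and amino acid sensing genes, 12 tested, edgeR and limma-voom called none and 1 had an unadjusted p under 0.05. That gene, Ddit4l, the paralog of Ddit4, stood at 12.4, 5.26 and 7.10 CPM in knockout 1, 2 and 3, and at 21.9, 40.3 and 51.3 CPM in heterozygous 1, 2 and 3. Its groups were far apart (log2 -2.20, SE 0.412, edgeR adjusted p = 0.0736; DESeq2 adjusted p = 3.18e-06), whereas those of Ddit4 overlapped. Like the skeletal muscle markers, Ddit4l was lower in every knockout-labelled library. With a score averaged over those markers on the log2 scale as a covariate, the log2 difference of Ddit4l was -0.35 (SE 0.411), in a fit chosen after seeing the data. In the same fit Eda2r was at -0.58 (SE 0.857), Dele1 at -0.37 (SE 0.342), Trap1 at -1.34 (SE 0.310) and Hspd1 at -1.03 (SE 0.354). The score did not overlap between the groups, so that this fit separates muscle from genotype poorly. The cause of the Ddit4l difference was not tested. Sesn3 was at -0.42 (edgeR adjusted p = 0.68).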

How the data were processed

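RNA sequencing of brown adipose tissue from 3 knockout-labelled and 3 heterozygous-labelled mice was deposited by the authors as a table of raw read counts per gene, with no normalization. Tools listed, per the submitters' processing notes, were STAR 2.7.2b, Bowtie2 2.3.4.3, HTSeq, SAMtools 1.9, edgeR and Trim Galore, on mm10; their roles and order are not recorded there. The 5 closing lines, which name no gene, held 41.7 to 49.0% of reads in knockout-labelled and 51.6 to 56.1% in heterozygous-labelled libraries, and were left out. Reads aligned to more than one place made up 17.6 to 19.8% and 21.8 to 23.8% in these groups.

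Counts of genes passing filterByExpr (13300 of 24062) were tested in R 4.3.3 by the robust quasi-likelihood fit of edgeR 4.0.16, scaled by TMM, with genotype as the only term, with Benjamini-Hochberg adjustment over all of them at 0.05. The biological coefficient of variation was 24.7%. Alternatives included DESeq2 1.42.0 and limma-voom 3.58.1. The scripts were tested on simulated data. The value between the RE libraries is a difference of log2(CPM + 0.5). No 2 libraries agreed within sampling noise (15 pairs). Labels name separate animals only by library, so p-values measure the spread between these samples.

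Positions and exon lengths are from GENCODE M21 on GRCm38, where 22709 symbols matched directly and 932 through 1 older symbol, and promoter windows from the RefSeq table for GRCm38.p6. The 10 genes, the pathway lists and the marker lists were chosen with earlier results of these data known. From pathway lists the text names the eIF2 alpha kinases and Ppp1r15a and Ppp1r15b, the called genes (up to 4 a list) and, where none was called, the 2 genes of smallest p.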

Additional observations from a re-analysis of the deposited data

How the results depend on the processing

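The median of the 9 tested genes stayed within 1 within-group SD of 0.41 under every alternative run, between 0.22 without heterozygous 1 and 0.55 for the RE libraries. None of the 9 passed in any genotype fit except Atf5 with the title prefix in the model, which makes the number called 1 there. Over all genes the 78 calls became 132 among the RF libraries alone, 311 with the title prefix in the model, 755 by DESeq2, 194 by limma-voom, 500 at an adjusted p of 0.1 and 0 with the muscle score as a covariate (edgeR; an alternative chosen after seeing the data), and between 0 and 400 with single libraries left out (0 without knockout 1, knockout 2 or heterozygous 2, 8 without heterozygous 3, 400 without heterozygous 1). The cause was not tested.

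With the muscle score as a covariate some estimates changed sign: Ddit3 to -0.19, Chac1 to 1.69, Cebpg to -0.062, Got1 to 0.29, Gpt2 to 1.03, Sdf2l1 to -0.22, Mt1 to -0.36 and Ppp1r15b to -0.23. In that fit Atf4 stood at 0.44, Atf5 at 0.96 and Trib3 at 0.97. For Atf4 and Atf5 the SE was larger than the estimate, and for Trib3 it was wider than with genotype as the only term. With the score in the model the SE was also wider for each gene that changed sign. The score did not overlap between the groups, so that neither the kept nor the changed signs tell muscle from genotype. Eif2ak1, near 0 throughout, was -0.054 with library size only, -0.0014 with a mean CPM of at least 1, -0.020 among the RF libraries and -0.0069 by limma-voom. With single libraries left out the sign turned for Ddit3 (-0.077 to 0.27), Chac1 (-0.82 to 0.10), Sesn2 (-0.053 to 0.47), Ddit4 (-0.31 to 0.90), Eif2ak1 (-0.027 to 0.039), Ppp1r15b (-0.10 to 0.28) and Fam195a (-0.29 to 0.033). It also turned for the difference of RE over RF in Atf4 (-0.13 to 0.35) and Chac1 (-0.25 to 0.65). The 4 genes that passed for RE over RF became 1 without genotype in the model, and between 0 and 4 with single libraries left out.

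No paired analysis was possible because the labels carry no replicate numbers that pair single libraries; the fit with the title prefix as a term, given above, is the only one with a block. Slc7a11, at 0 to 10 reads per library, was tested only without the edgeR filter and by DESeq2.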
